A study of Mus musculus with 6 samples.

Results

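Egr1, Egr2, Egr3, Nab1, Nab2, Klf2, Klf4, Klf6 and Klf10 make a set of transcription factors and co-repressors that was followed in RAW264.7 macrophages with and without Trem2 knockdown. The 9 genes were taken by symbol from a table of 56092 gene symbols, and all 9 passed the filter on low counts that 13528 genes passed. RAW264.7 is a mouse macrophage line, and Trem2 is a surface receptor that binds lipids of injured cells. One group carried a control vector (shNC), named an empty vector in the labels and described with a negative control hairpin in the methods, and the other carried the Trem2 knockdown (shTrem2), each as a line stably transduced with a lentiviral vector, and 3 libraries were sequenced per group. Cells of both groups were polarized with 20 ng/mL IL-4 over 24 hours and then given debris of TCMK-1 cells, a mouse renal tubular epithelial line, for 24 hours. No library without IL-4 or without debris was among the 6, and the source text gives 2 shRNAs against Trem2 without saying which one these libraries carry. A difference between the transduced lines other than Trem2 and the knockdown itself cannot be told apart. Nothing in the labels says whether the replicates were separate cultures, so the p-values measure only the spread between these libraries, which may be technical.

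EGR proteins are zinc-finger factors of the immediate-early class: growth factors and receptor signals switch their genes on within minutes, through serum response factor and its ERK-phosphorylated partners at CArG boxes. NAB1 and NAB2 bind EGR proteins and repress their targets, NAB2 in part through the NuRD chromatin remodelling complex, and Nab2 is itself an EGR target, so that the pair forms a feedback loop. KLF proteins are zinc-finger factors that bind CACCC and other GC-rich elements. Klf2 and Klf4 are both induced through ERK5 and MEF2 factors, Klf2 restrains inflammatory genes in myeloid cells and Klf4 acts with STAT6 in the macrophage response to IL-4. Klf6 promotes inflammatory gene expression in macrophages, and Klf10 is an early target of TGF-beta.

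Promoters of 4 genes are shown for a view of elements known to bind EGR factors, serum response factor or MEF2 factors. They are the promoters of the 3 genes that rose with knockdown and of Egr2, which carries a CArG box. Each is the 250 bases before the start site, 5′ to 3′ on the gene's strand, from the RefSeq table for GRCm38.p6. The windows lie at chr10:67537619-67537868 (plus strand) for Egr2, chr10:127666704-127666953 (minus strand) for Nab2, chr8:72318812-72319061 (plus strand) for Klf2 and chr4:55532476-55532725 (minus strand) for Klf4. Capitals mark matches to the EGR motif, the CArG box and the MEF2 site on either strand.
Egr2: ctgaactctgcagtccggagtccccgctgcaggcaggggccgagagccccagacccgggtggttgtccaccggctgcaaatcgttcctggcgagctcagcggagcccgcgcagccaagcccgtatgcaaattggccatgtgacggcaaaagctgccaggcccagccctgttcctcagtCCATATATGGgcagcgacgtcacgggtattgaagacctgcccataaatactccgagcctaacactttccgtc
Nab2: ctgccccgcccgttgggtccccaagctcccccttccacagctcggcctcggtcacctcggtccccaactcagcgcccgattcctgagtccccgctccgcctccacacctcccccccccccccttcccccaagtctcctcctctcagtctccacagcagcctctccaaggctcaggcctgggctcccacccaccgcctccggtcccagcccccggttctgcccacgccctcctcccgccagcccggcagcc
Klf2: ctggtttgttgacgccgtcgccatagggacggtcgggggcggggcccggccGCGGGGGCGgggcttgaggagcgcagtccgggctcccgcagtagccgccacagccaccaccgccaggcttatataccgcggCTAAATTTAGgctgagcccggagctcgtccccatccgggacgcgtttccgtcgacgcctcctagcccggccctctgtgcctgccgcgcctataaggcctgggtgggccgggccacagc
Klf4: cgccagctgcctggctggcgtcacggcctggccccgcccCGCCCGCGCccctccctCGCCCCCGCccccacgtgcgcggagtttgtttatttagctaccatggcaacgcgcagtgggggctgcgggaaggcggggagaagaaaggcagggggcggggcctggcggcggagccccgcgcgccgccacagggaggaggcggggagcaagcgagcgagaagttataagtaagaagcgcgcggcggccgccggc

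The table held 6 of the 9 genes, namely Egr2, Nab1, Nab2, Klf2, Klf4 and Klf6. The EGR motif GCGNGGGCG was searched on both strands and was found in 3 of the 6 windows, against 4.70% of all 32851 windows of this length in the table. Klf4 held 2 matches, at -211 to -203 and at -194 to -186 from the start site, Klf2 held 1 at -199 to -191, and Nab1 held 3. The start site of the Nab1 window lay 231 bases from that of its most counted transcript, where this distance was 29 bases for Klf2 and 9 for Klf4. A match to the CArG box occurred in Egr2 alone, as CCATATATGG at -72 to -63, and 1.47% of all windows held such a match. Klf2 held a MEF2 site, CTAAATTTAG at -118 to -109, a motif found in 2.92% of all windows and added to the search after the sequences had been seen. The KLF element CACCC was present in 4 of the 6 windows and in 52.0% of all windows, and GGGNGTGG, which can overlap it, was present in 2 of the 6 and in 15.9% of all windows. Nab2 carried 1 match to each of these and none to the EGR motif, the CArG box or the MEF2 site. A match describes letters in a window and not an occupied site, and Klf6 held no match to any of the 5 motifs.

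Every shTrem2 library was deeper than every shNC library. Named genes held between 15876119 and 18088388 estimated counts in shNC and between 19358125 and 19655165 in shTrem2, so that 3 counts, the most that a count of 0 allows, came to between 0.153 and 0.189 unscaled CPM (counts as a rate of these totals, with no TMM factor). This floor covers counting error only. Levels of single genes are given as CPM scaled by the TMM method, save where they are called unscaled. The control libraries held Trem2 at 127 ± 15.4 CPM and the knockdown libraries at 69.4 ± 9.42 CPM (SD, n = 3 per group), a log2 fold change of -0.87 (FDR = 3.39e-06 by edgeR). The FPKM values of Trem2 gave -2.08 on the log2(FPKM + 0.1) scale, and counts with an offset for effective length gave -2.06. The cause of the gap between these sizes was not tested. All 8 macrophage markers of a list were tested, and their summed level ran from 5196 to 6085 unscaled CPM in shNC and from 10058 to 11186 unscaled CPM in shTrem2. Lyz2 alone, which encodes lysozyme, made up 2558 to 3221 unscaled CPM of this sum in shNC and 6750 to 7817 in shTrem2. The other 7 markers summed to between 2638 and 2863 unscaled CPM in shNC and between 3308 and 3385 in shTrem2. In that list Lyz2, Csf1r and Fcgr1 were called higher, or 37.5% against 9.46% of all tested genes, and Itgam was called lower (log2 fold change -0.78), or 12.5% against 12.4%. All 8 had an FDR under 0.05, 6 higher and 2 lower, with Spi1 at 0.47 and Adgre1 at -0.56 among those short of a 1.5-fold change. The part of this shift in the results below was not tested. In bulk RNA, fewer cells of a type and less RNA per cell cannot be told apart. Of 12 renal tubular epithelial markers, 7 were at 0 in all libraries and the highest count of any was 8, in Lrp2. Retnla and Chil3, which IL-4 induces in macrophages, had 0 counts in all 6 libraries.

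Among the 9 genes, Klf4, Klf2 and Nab2 rose with Trem2 knockdown and none fell. A gene was called where its FDR, from edgeR's quasi-likelihood test over all 13528 genes, was under 0.05 and its fold change was over 1.5. The 3 rises are 33.3% of the set, while 9.46% of all tested genes were called higher. The 0 falls stand beside 12.4% of all tested genes called lower, and no gene of the set was lower at an unadjusted p under 0.05 or was called lower by DESeq2 or limma-voom. Egr1, Egr2 and Klf6 also had an FDR under 0.05 but changed by less than 1.5-fold, which brings the set to 6 of 9, or 66.7%, against 57.4% of all tested genes. At this looser criterion the set's share was near that of all genes. The ranges of the groups were apart for 4 of the 9, or 44.4%, against 63.8% of all tested genes. The median log2 fold change of the set was 0.31, where that of all tested genes was -2.84e-05, and 7 of the 9 values were positive. The plots of CPM by library and of fold changes show the range of these responses.

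**Figure D1:**
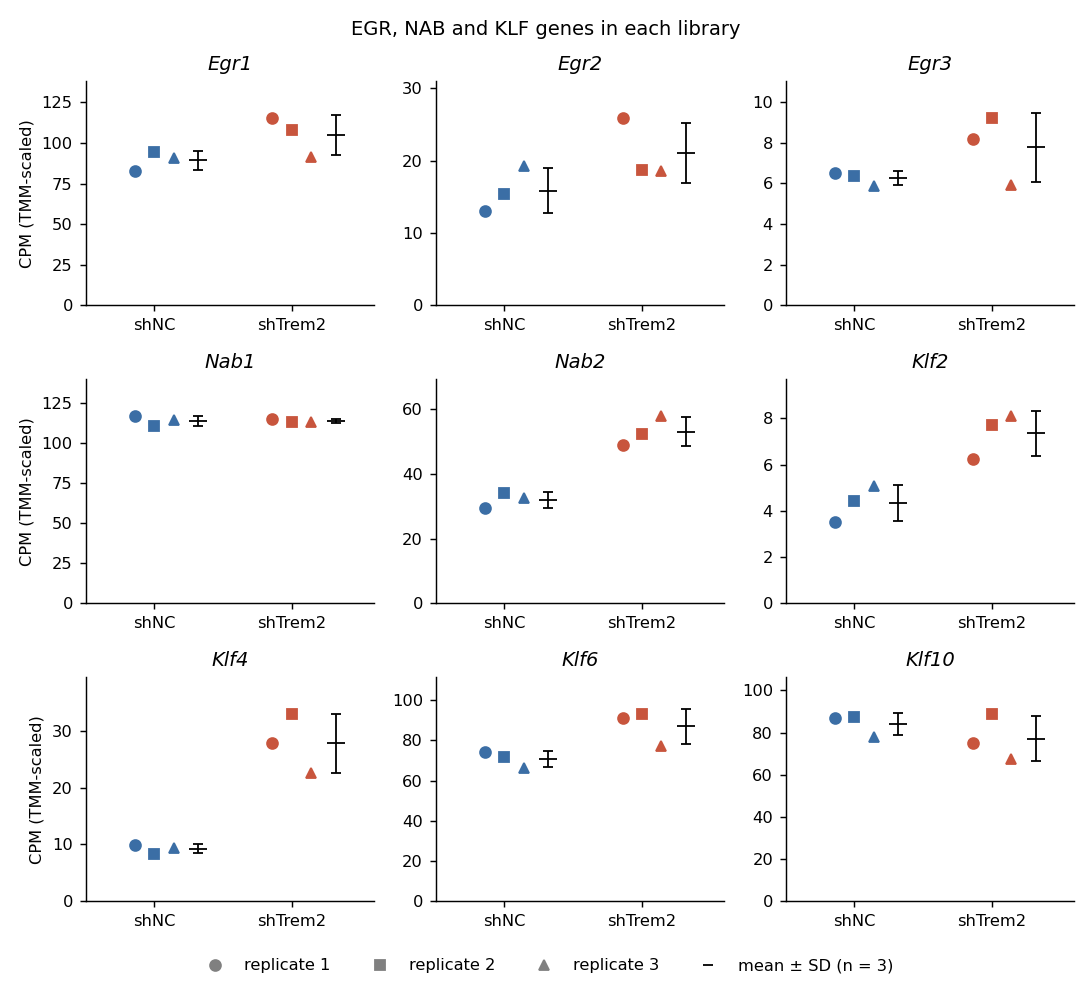
Level of each gene in each library, in TMM-scaled CPM on linear axes that start at 0, with 1 symbol per replicate and the mean ± SD (n = 3) beside each group. The shTrem2 libraries lie apart from and above the shNC libraries for Nab2, Klf2, Klf4 and Klf6, and the groups overlap for the other 5 genes.

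**Figure D2:**
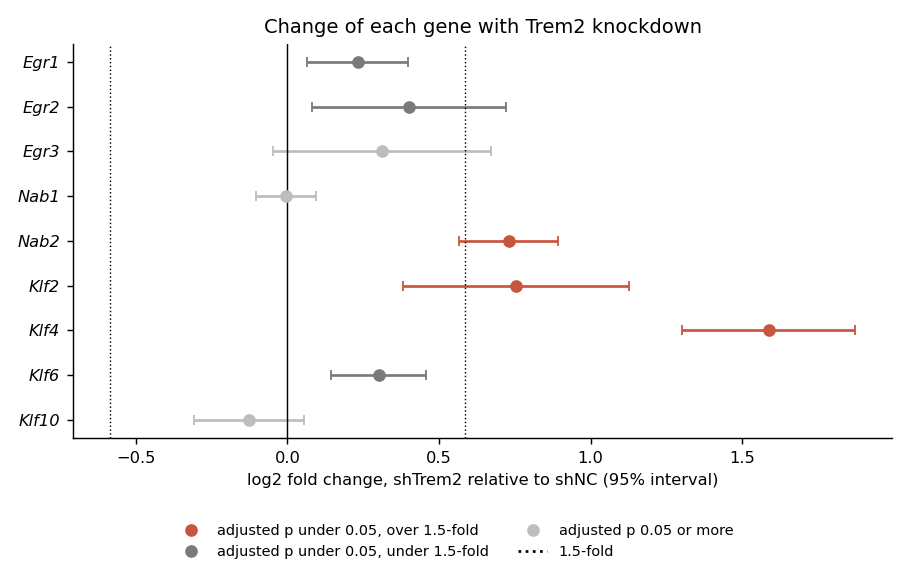
Log2 fold change of each gene, shTrem2 relative to shNC, with its 95% interval from edgeR's quasi-likelihood fit; dotted lines mark a 1.5-fold change. The interval of Klf4 lies wholly beyond 1.5-fold, those of Nab2 and Klf2 cross that line, and those of Egr3, Nab1 and Klf10 cross 0.

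None of the EGR genes changed by 1.5-fold. Egr1, the EGR factor that the study follows, stood at 82.9, 94.3 and 90.6 CPM in the shNC libraries, here and below in the order of replicates 1 to 3, and at 115, 108 and 91.3 CPM in the shTrem2 libraries. Replicates 1 and 2 of shTrem2 lay above all shNC libraries, and replicate 3 lay within their range. The log2 fold change of Egr1 was 0.23 (95% interval 0.065 to 0.397, FDR = 0.0199 by edgeR). The FDR passed 0.05 in 11 of 17 alternatives and ranged over them from 5.64e-04, without shTrem2 replicate 3, to 0.145. It was 0.108 without shNC replicate 1, 0.115 without shTrem2 replicate 1 and 0.0589 without shTrem2 replicate 2, and it was also over 0.05 with limma on FPKM at both pseudocounts and with the offset for effective length.

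Egr2, a factor of hindbrain and Schwann cells that also serves in macrophage and lymphocyte differentiation, stood at 13.0, 15.4 and 19.2 CPM in shNC and at 25.8, 18.7 and 18.5 CPM in shTrem2. Replicate 1 of shTrem2 was higher than every other library, and the other two shTrem2 libraries lay below shNC replicate 3. The log2 fold change of Egr2 was 0.40 (95% interval 0.082 to 0.722, FDR = 0.0328 by edgeR). Without shTrem2 replicate 1 it was 0.23, with an FDR of 0.198, the highest of its alternatives, where the lowest was 3.99e-04. The FDR of Egr2 was under 0.05 in 11 of 17 alternatives. It was also over 0.05 without shNC replicate 1 (0.152) and without shNC replicate 2 (0.102), with limma on log2(FPKM + 1) (0.180) and on log2(FPKM + 0.1) (0.177), and with the offset for effective length (0.108). The main coding transcript Egr2-201 held between 78.5% and 98.8% of the gene's counts in every library. Its mean level was 13.2 ± 2.82 CPM without and 19.1 ± 2.46 CPM with knockdown (SD, n = 3 per group), and the groups did not overlap. Another coding transcript, Egr2-202, went the other way, from 2.54 ± 0.774 to 1.38 ± 1.31 CPM, and its groups overlapped. How reads were divided between these transcripts was not tested.

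Egr3, an EGR factor with roles in lymphocytes and muscle spindles, was the least abundant of the EGR genes. It was measured at 6.52, 6.38 and 5.88 CPM in shNC and at 8.19, 9.19 and 5.92 CPM in shTrem2, so that replicate 3 of shTrem2 lay within the shNC range. Its log2 fold change of 0.31 did not pass the test (95% interval -0.049 to 0.671, FDR = 0.128 by edgeR). Without shTrem2 replicate 3 it was 0.47 with an FDR of 0.0158. Leaving out shTrem2 replicate 2 instead gave 0.18 with an FDR of 0.420, the highest of its alternatives. Its counts were shared between transcript rows whose annotated lengths were too close to be told apart. The count of the first of these rows was 2.10 ± 0.878 CPM without and 4.80 ± 1.03 CPM with knockdown (SD, n = 3 per group), and that of the other was 4.00 ± 0.522 and 2.71 ± 2.04 CPM.

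The NAB co-repressors differed from each other. Nab1 stood at 116, 110 and 114 CPM in shNC and at 115, 113 and 113 CPM in shTrem2. The libraries of both groups interleave, and the log2 fold change of -0.0043 had a 95% interval from -0.104 to 0.096 (FDR = 0.946 by edgeR), the narrowest of the set. Nab2 was measured at 29.4, 34.1 and 32.4 CPM in shNC and at 49.1, 52.3 and 57.8 CPM in shTrem2. Every shTrem2 library stood above every shNC library. The log2 fold change of Nab2 was 0.73 (standard error 0.076, 95% interval 0.565 to 0.894, FDR = 2.52e-06 by edgeR), and the call held in all 17 alternatives, with FDR values up to 6.47e-04.

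The rise of Nab2 was uneven between its transcripts. The count table has a row per transcript without a name, and rows were named by the order of GENCODE M21 transcript lengths that best returned the gene's FPKM. The largest error in any library was 0.992% for that order. It was 3.36% for the best order that gave the row with most counts another name. The same error was 0.0385% for Egr2 and 0.146% for Klf4, and 1.42% for Klf10, whose rows were not named. Nab2-201, the longer form with 7 exons and 1575 coding bases, was at 13.9, 13.9 and 14.9 CPM in shNC and at 28.6, 30.1 and 35.0 CPM in shTrem2. Its mean went from 14.2 ± 0.594 to 31.2 ± 3.31 CPM (SD, n = 3 per group), a log2 ratio of 1.14. Nab2-202 lacks 1 of these exons and 192 of those coding bases. It was at 15.5, 20.3 and 17.5 CPM in shNC and at 20.3, 22.1 and 22.7 CPM in shTrem2, a log2 ratio of 0.29, and its groups were separated only by a margin smaller than the spread within either. The share of Nab2 counts assigned to Nab2-201 was 47.2%, 40.6% and 46.0% in shNC and 58.3%, 57.6% and 60.5% in shTrem2. For the level of either transcript the exact permutation test gave p = 0.1 (two-sided), the smallest that 3 against 3 allows. How the authors' counting divided reads between overlapping transcripts was not tested.

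**Figure D3:**
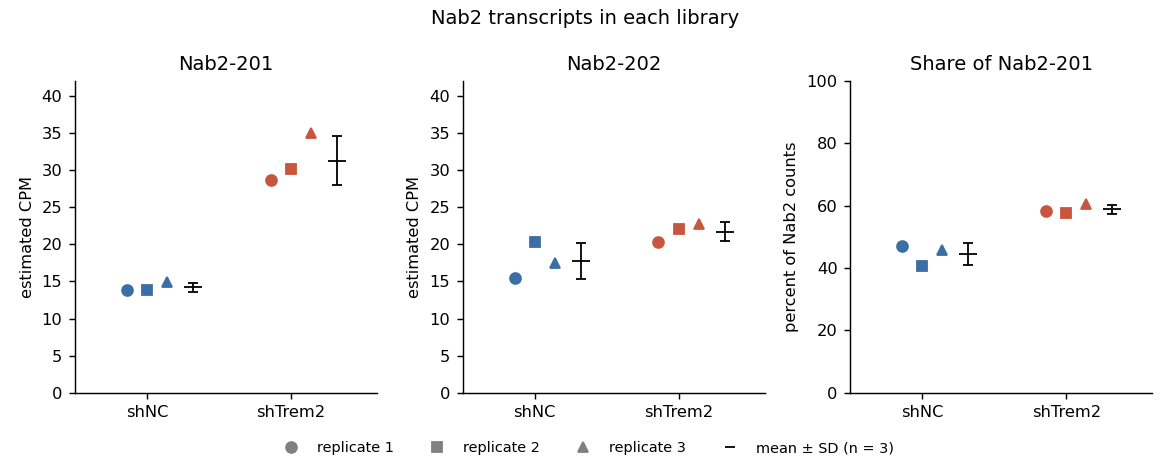
Estimated CPM of Nab2-201 and Nab2-202 and the percent of Nab2 counts assigned to Nab2-201, by library, with the mean ± SD (n = 3) beside each group. Nab2-201 rises from about 14.2 to 31.2 CPM while Nab2-202 goes from 17.8 to 21.7 CPM.

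Klf4 had the largest fold change of the set. It was measured at 9.94, 8.38 and 9.40 CPM in shNC and at 27.9, 32.9 and 22.5 CPM in shTrem2, and the lowest shTrem2 library was above every shNC library by a wide margin. The log2 fold change was 1.59 (standard error 0.133, 95% interval 1.30 to 1.87, FDR = 3.04e-07 by edgeR). Klf4 was called in all 17 alternatives, with log2 fold changes from 1.37 to 1.71, and its counts fell almost wholly on the coding transcript Klf4-201, with a lowest share of 99.08% in any library. Klf2 was less abundant, at 3.54, 4.44 and 5.06 CPM in shNC and 6.26, 7.73 and 8.09 CPM in shTrem2. Its groups did not overlap, with a log2 fold change of 0.75 (standard error 0.173, 95% interval 0.382 to 1.13, FDR = 0.00201 by edgeR). On the log2(FPKM + 1) scale, which shrinks the change of low genes, the change of Klf2 was 0.57 and fell short of 1.5-fold.

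Klf6 was measured at 74.2, 71.8 and 66.3 CPM in shNC and at 91.3, 92.9 and 77.1 CPM in shTrem2. Every shTrem2 library was above every shNC library, although the gap between the nearest libraries of the groups was small. The log2 fold change of Klf6 was 0.30 (95% interval 0.144 to 0.456, FDR = 0.00290 by edgeR), and its FDR was under 0.05 in all 17 alternatives. Klf10 was measured at 86.7, 87.6 and 78.0 CPM in shNC and at 74.8, 88.6 and 67.6 CPM in shTrem2. The groups overlapped and the log2 fold change of -0.13 did not pass the test (95% interval -0.309 to 0.054, FDR = 0.214 by edgeR). Without shTrem2 replicate 2 it was -0.24 with an FDR of 0.0118. Leaving out shTrem2 replicate 3 instead gave -0.050 with an FDR of 0.596, the highest of its alternatives. A second Klf10 transcript row, not identified by length, held 0 counts in 4 libraries and 79.1 and 137 counts in shTrem2 replicates 2 and 3.

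Libraries of shTrem2 did not contribute alike. Replicate 3 was the lowest of the 3 shTrem2 libraries for Egr1, Egr2, Egr3, Klf4, Klf6 and Klf10, 6 of the 9 genes, while it was the lowest for 36.6% of all tested genes. The same library was the highest of its group for Nab2 and Klf2.

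Levels were compared between genes per transcript length, in FPKM (fragments scaled by transcript length and library total). In shNC the order of mean FPKM was Nab1 (32.6), Klf10 (31.7), Egr1 (21.5), Klf6 (18.3), Nab2 (15.3), Egr2 (6.34), Klf4 (3.42), Klf2 (2.86) and Egr3 (1.84). Neighbours in this order were separated in all libraries except Nab1 from Klf10 and Klf4 from Klf2. In shTrem2, Nab2 (25.6 FPKM) stood between Klf10 (28.2) and Egr1 (24.6), and Klf4 (10.5) stood above Egr2 (8.05). The libraries of Nab1 (31.6), Klf10, Nab2, Egr1 and Klf6 (22.7) formed an overlapping chain in shTrem2, and Klf4 and Egr2 overlapped as well. Klf2 (4.73) and Egr3 (2.27) remained the lowest.

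**Figure D4:**
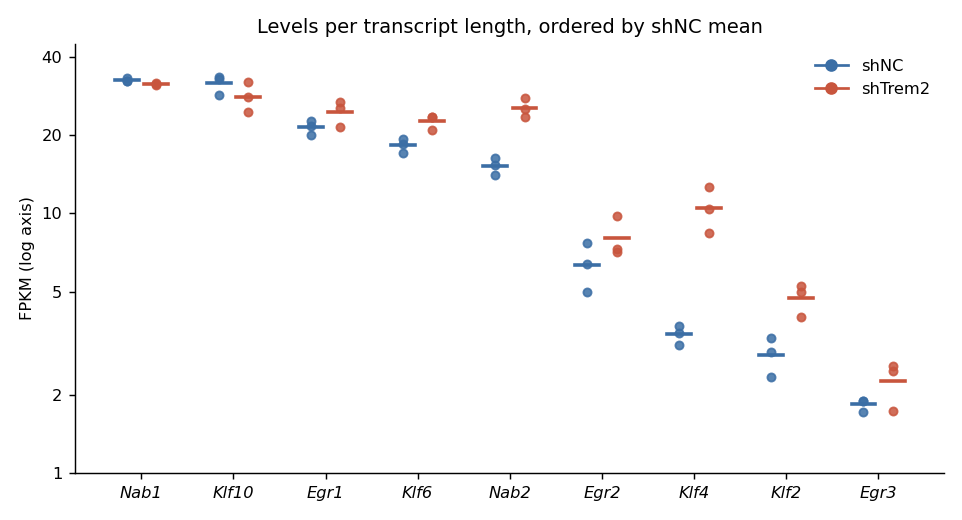
FPKM of each gene in each library on a log axis, with a bar at the mean of the 3 libraries of a group, in the order of the shNC means. Nab2 and Klf4 move up in the shTrem2 order, to 25.6 and 10.5 FPKM.

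Since NAB2 acts on EGR1, their ratio was taken per library. The log2 ratio of Egr1 to Nab2 FPKM was 0.51, 0.47 and 0.50 in shNC and 0.19, 0.0045 and -0.37 in shTrem2. Egr1 exceeded Nab2 in all shNC libraries by a nearly constant factor, and this excess was smaller, absent or turned in shTrem2. The mean ratio differed by -0.55 on the log2 scale, with an exact permutation p of 0.1 (two-sided), the smallest that 3 against 3 allows. The log2 ratio of Klf2 to Klf4 FPKM was -0.66, -0.09 and -0.06 in shNC and -1.38, -1.35 and -0.69 in shTrem2. These groups were separated too, by the small gap between -0.66 and -0.69, and the means differed by -0.87 (exact permutation p = 0.1, two-sided).

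Genes whose pattern over the 6 libraries was most like that of Egr1 were taken by the root mean square difference of log2 CPM, after each gene was centred on its own mean, among 9602 genes with mean log2 CPM of at least 3. The nearest were Gin1 (0.0405), Gpr146 (0.0421), Gm57852 (0.0451), Terf2ip (0.0477) and Ndufa1 (0.0495), where the median of all genes was 0.209. Egr3 and Klf2 fell below the mean log2 CPM of 3 and were not compared. Of the other genes of the set Klf6 was nearest to Egr1, at 0.101 and rank 283. Nab2 (0.301, rank 7118) and Klf4 (0.687, rank 9349) were far from Egr1. Egr1 and Egr2 differed by 0.195, at rank 4301.

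None of the other EGR, KLF and SP factors was called higher, where 9.46% of all tested genes were. Of 19 listed genes 11 were tested, and Egr4, Klf5, Klf14, Klf17 and Wt1 had 0 counts in all libraries. Klf9, a factor responsive to glucocorticoid and thyroid hormone, fell from 75.3 ± 2.32 to 35.9 ± 2.14 CPM (SD, n = 3 per group), a log2 fold change of -1.07 (FDR = 9.82e-09 by edgeR). It was the only gene called among the 11, or 9.09% of the list against 12.4% of all tested genes called lower. At an FDR under 0.05, 3 were higher and 4 lower, or 63.6% against 57.4% of all tested genes, and the median log2 fold change was -0.17. The call of 0 rises held in DESeq2 and limma-voom, and 3 genes were higher at an unadjusted p under 0.05.

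Known regulators of EGR and KLF genes, namely serum response factor, its partners and MEF2 factors, were listed with the ERK and ERK5 kinases. All 19 were tested, none was called higher by edgeR, DESeq2 or limma-voom (9.46% of all tested genes were by edgeR), and 4 were called lower, or 21.1% against 12.4% of all tested genes. Braf, a kinase at the head of the ERK cascade, fell from 96.0 ± 7.17 to 55.0 ± 4.37 CPM (log2 fold change -0.80, FDR = 4.97e-07 by edgeR). The ternary complex factors Elk4 and Elk3, partners of serum response factor, fell by 0.65 each on the log2 scale. Mapk7, which encodes ERK5, went from 39.6 ± 2.57 to 25.7 ± 0.886 CPM (SD, n = 3 per group), a log2 fold change of -0.62 (FDR = 4.89e-06 by edgeR). At an FDR under 0.05 of any size 5 genes were higher and 6 lower, a share of 57.9% that was near the 57.4% of all tested genes. At an unadjusted p under 0.05, 6 genes were higher, and the median log2 fold change of the list was 0.018. None of the 12 NuRD subunits tested was called by edgeR, DESeq2 or limma-voom, beside 9.46% of all tested genes called higher and 12.4% lower, and their median log2 fold change was 0.12. At an FDR under 0.05, 5 were higher and 2 lower, or 58.3%, again near the 57.4% of all tested genes, and 6 and 2 were so at an unadjusted p under 0.05.

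Listed targets of EGR factors moved down where they moved by more than 1.5-fold. Of 15 tested genes 7 were called lower by edgeR and by DESeq2, and 0 were called higher by either or by limma-voom, although 3 were higher at an unadjusted p under 0.05. The 7 falls are 46.7% of the list, where 12.4% of all tested genes were called lower, and the 0 rises stand beside 9.46% called higher. At an FDR under 0.05 of any size 1 gene was higher and 8 lower, and these 9 of 15 are near the 57.4% of all tested genes. The median log2 fold change of the list was -0.31. The largest falls were in Plau, which encodes urokinase (log2 fold change -2.57), Ptges, a prostaglandin E synthase (-2.49), the stress gene Gadd45b (-1.72) and Cdkn1a, which encodes the cell cycle inhibitor p21 (-1.36). Plau went from 239 ± 8.90 to 40.1 ± 6.29 CPM and Cdkn1a from 430 ± 28.9 to 168 ± 8.39 CPM (SD, n = 3 each). The change of Ptges, at 4.52 CPM in shNC, was -0.60 on the log2(FPKM + 1) scale and no longer passed the test. These genes have other known regulators, NF-kB and p53 among them, and what set their level was not tested.

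Of 11 listed KLF targets 5 passed the filter on low counts, and Retnla and Chil3 were among those that did not. S1pr1, a lymphocyte trafficking receptor and a target of Klf2, rose from 1.43 ± 0.702 to 4.72 ± 1.18 CPM (log2 fold change 1.74, FDR = 2.57e-04 by edgeR). Mrc1, the mannose receptor of alternatively activated macrophages, rose from 0.472 ± 0.264 to 3.28 ± 0.414 CPM (log2 fold change 2.76, FDR = 1.22e-05 by edgeR), and its shNC level rested on 5, 14 and 6 counts. The size of both rises depended on the scale: on log2(FPKM + 1) the change of S1pr1 was 0.82 and that of Mrc1 0.63, and both passed the test there. S1pr1 and Mrc1 were 2 of the 5 tested genes, where 9.46% of all tested genes were called higher. Mrc1 passed the filter on low counts through its shTrem2 libraries (62, 71 and 56 counts), so no conclusion is drawn from this share. Where at least 10 counts were asked in every library, Mrc1 was removed and S1pr1 alone was called higher. Itgb7, an integrin subunit that Klf2 is known to regulate in lymphocytes, fell from 20.6 ± 3.05 to 4.14 ± 0.477 CPM (log2 fold change -2.31, FDR = 1.62e-08 by edgeR). It was the 1 gene of the 5 called lower, where 12.4% of all tested genes were, and the other 2 genes of the 5 had an FDR over 0.05. The median log2 fold change of the 5 was -0.027. The plot of the lists sets these changes side by side.

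**Figure D5:**
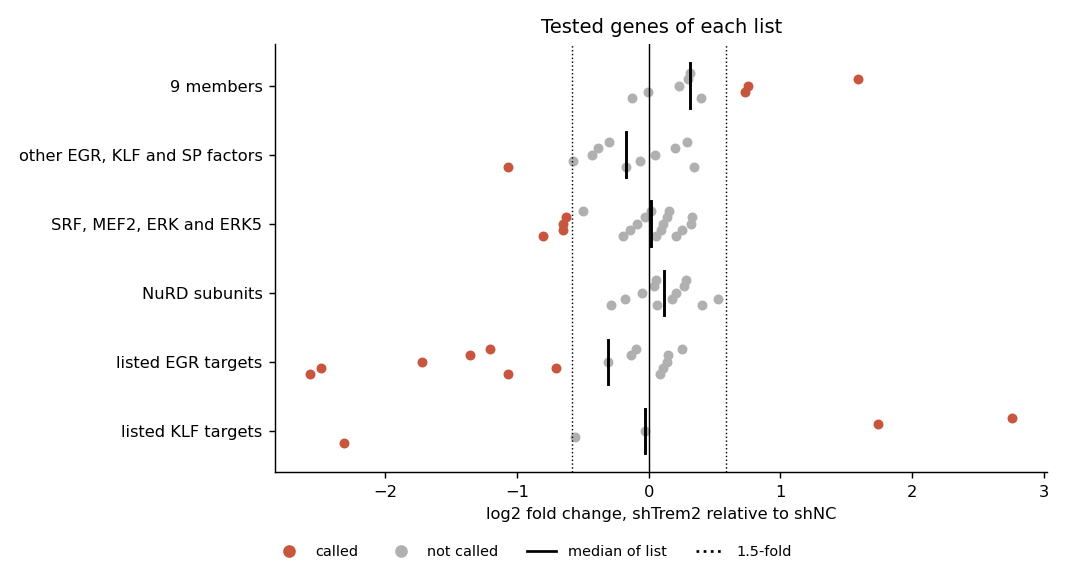
Log2 fold change of every tested gene of each list, shTrem2 relative to shNC, with called genes in red, the list median as a black bar and dotted lines at 1.5-fold. The median is 0.31 for the 9 EGR, NAB and KLF genes and -0.31 for the listed EGR targets, and points of the same list are spread vertically only to keep them apart.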

How the data were processed

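RNA of 3 shNC and 3 shTrem2 libraries of RAW264.7 cells was sequenced (polyA-selected, stranded, paired-end). The submitters' processing notes name fastp, HISAT2, StringTie and the build GRCm39. The authors deposited estimated counts per transcript row, labelled by gene symbol and not scaled for depth (79.3% of nonzero values were not whole), and FPKM values per gene. The counting tool is not given in the sources used here. Columns of the authors' group means were not used.

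Counts were summed per symbol and rounded. A symbol shared by several gene identifiers (311 symbols) was treated as 1 gene. Unnamed rows (0.908% to 1.12% of counts per library) were left out. Tests were edgeR 4.0.16 (R 4.3.3; TMM, filterByExpr, glmQLFit, glmQLFTest, no covariates) with Benjamini-Hochberg FDR over 13528 genes, and the code was tested on simulated data. A called gene had FDR under 0.05 and fold change over 1.5, after the study's criteria. Alternatives used DESeq2 1.42.0, limma 3.58.1 (voom on counts, trend on FPKM), other scalings and filters, an offset for effective length, a replicate block and leaving out each library. Library pairs differed by more than sampling noise, so all 6 were counted.

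The genes, lists and tests were chosen with earlier results of these data known. Named were the 9 genes, Trem2, up to 4 called genes of largest change per list and the 5 genes nearest to Egr1; Retnla, Chil3, macrophage markers and genes near 0 were named after their values were seen. Promoter windows are RefSeq's for GRCm38.p6, of the start nearest to the most counted transcript. No coordinate was carried between builds. Results for some genes are not reported here.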

Additional observations from a re-analysis of the deposited data

How the results depend on the processing

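Of the 9 genes, 3 were called higher and 0 lower in the analysis as reported, in every fit that left out one library (lowest 3, highest 3), and under other scalings and filters, DESeq2 and limma-voom. The count was 2 with limma on log2(FPKM + 1), where Klf2 (0.57) fell short of 1.5-fold. Without any fold threshold it was 6. It was 1 where a 2-fold change was asked, and also 1 where glmTreat tested against 1.5-fold, as those thresholds imply. The calls of Nab2 and Klf4 held in every fit at FDR under 0.05 and 1.5-fold, and that of Nab2 was lost under the 2-fold and glmTreat criteria. For Ptges the call was lost with limma on FPKM (-0.60 and -1.16 with pseudocounts of 1 and 0.1) and with the offset for effective length (-1.07); the cause was not tested.

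Listed EGR, KLF and SP factors called lower were 2, not 1, with upper quartile scaling and with library size only (Sp4 added), and 1 to 2 with a library left out, with 2 without shNC replicate 3 or shTrem2 replicate 2 (Sp4) and without shTrem2 replicate 1 (Klf3). KLF targets called higher were 1, not 2, with at least 10 counts in every library, which removes Mrc1. Macrophage markers called lower were 2, not 1, with library size only, with limma on FPKM at both pseudocounts and with the offset, and 1 to 2 with a library left out, with 2 without shNC replicate 1, shTrem2 replicate 1 or shTrem2 replicate 2 (Adgre1 added). All genes called numbered 2951 as reported and 2124 with log2(FPKM + 1). The log2 ratio of Egr1 to Nab2 differed between groups by -0.67 to -0.39 with a library left out, and that of Klf2 to Klf4 by -1.09 to -0.75. Libraries of the same replicate number did not deviate together (correlations 0.0062, -0.0044 and 0.0066), and the fit with a replicate block called 3 of the 9 genes higher and 0 lower, with 2911 calls over all genes. Depth limits the precision for genes of low level, and Klf2 and Egr3 were under 10 CPM in all libraries and Klf4 in those of shNC.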
